A study of Homo sapiens with 6 samples.

Results

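The 50 genes described here act in the G2 phase of the cell cycle and in mitosis. They were listed by name for their function, with earlier results of these data known, and no measured value enters the rule: mitotic kinases, cyclins, kinetochore genes, kinesins and their partners. All 50 were found among the 24462 gene symbols of the deposited count tables, none of them on more than 1 row, and all 50 passed the filter on low counts, which left 16314 genes to be tested.

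Cells prepare for division in G2, when cyclin B and its kinase CDK1 accumulate and are held inactive until CDC25 phosphatases remove inhibitory phosphates. Mitosis then proceeds through chromosome condensation, spindle assembly, attachment of chromosomes at kinetochores, separation of sister chromatids and cytokinesis, and each step has its own proteins. Most of the genes for these proteins are transcribed late in the cell cycle. Their promoters often carry a short element, the cell cycle genes homology region (CHR), which is bound by the MuvB complex. MuvB joins with RB-like proteins and E2F4 as the repressor DREAM, and with B-MYB and FOXM1 as an activator. In a culture of dividing cells the summed RNA of these genes therefore broadly follows how many cells are in G2 and mitosis.

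RNA-seq was performed on 6 cultures labelled PC3, a human prostate cancer line established from a metastasis in bone. Of these, 3 had been transfected with a non-targeting siRNA (si-Control) and 3 with siRNA against CITED2 (si-CITED2), a partner of the coactivators CBP and p300, each at 80 nM for 72 h. The study used this comparison to back its gene set results from patient tissue, and reported metastasis-related sets as more enriched in control. Its methods list a single siRNA sequence against CITED2, so effects of that sequence on other transcripts cannot be told apart from effects of CITED2. All cultures were grown in the same serum-containing medium, and no cell sorting or synchronisation was described. The study describes the experiment as repeated independently. The p-values rest on the spread between these 3 cultures of each group, an estimate that the fit shares in part across all genes tested.

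The total count was between 19508925 and 28936374 reads per library, so that 3 counts, the smallest level taken as detectable, stood for 0.104 to 0.154 CPM (counts per 1000000 reads). Levels are given as CPM of the library size scaled by TMM, summed marker levels as CPM of the total count, and fold changes as log2 of si-CITED2 over si-Control. Counting error is small for these genes, whose lowest count in any library was 314. CITED2 itself was counted 966, 1108 and 657 times in the si-Control libraries and 893, 964 and 898 times in the libraries labelled si-CITED2, or 35.7 ± 2.60 and 42.3 ± 3.50 CPM (SD, n = 3). Its mRNA was thus not lower in the libraries labelled si-CITED2 but higher by 0.24 on the log2 scale (SE 0.07, edgeR adjusted p = 0.0363), and this call was lost without replicate 1 or 3 of either group (0.173 to 0.291 without any 1 library, adjusted p up to 0.154 without si-CITED2 replicate 1). The targeted mRNA therefore goes against the knockdown label. The study checked the knockdown by immunoblot of CITED2 protein, which is not part of the files analysed here, and every direction below is that of the libraries as labelled.

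The cell line label was checked against its known markers. All 7 markers expected in this line (KRT8, KRT18, KRT19, EPCAM, CDH1, VIM and CD44) were present, the lowest being EPCAM at 89.4 CPM in si-CITED2 replicate 1. The prostate genes KLK2 and KLK3 held at most 2 counts in any library. CTNNA1 (alpha-catenin), which PC3 is known to have lost by deletion, was counted at 467.9 ± 18.6 CPM in si-Control (SD, n = 3), which goes against the label. Gene totals do not show which exons the reads fell on, so the label PC3 is used here as given. Of the 8 blood cell markers, CD68 was high in every library, while the other 7 together reached 0.53 to 1.66 CPM in si-Control and 4.62 to 5.28 CPM in the libraries labelled si-CITED2. Most of that difference was in globin reads (HBA1 at 1, 3 and 1 against 44, 55 and 37 counts, HBB at 0 against 20, 32 and 20). The leukocyte marker LYZ was at 10, 20 and 27 against 21, 36 and 40 counts, and PTPRC at 2, 2 and 1 against 0 in every library labelled si-CITED2. The 8 stromal and endothelial markers summed to 6.32 to 6.57 CPM and to 6.72 to 7.94 CPM. The part of these markers in the results was not tested.

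Of the 50 mitosis and G2/M genes, 49 were lower in the libraries labelled si-CITED2 (edgeR quasi-likelihood test, Benjamini-Hochberg adjusted p under 0.05 over all genes), and none was higher, by edgeR at an adjusted or unadjusted p or by DESeq2, which called 48 lower. Among all 16314 genes tested, 8.09% were lower and 9.36% higher by the same rule, 17.4% in all. The log2 fold changes of the members had a median of -0.40 (quartiles -0.44 and -0.33), or 24.3% less RNA, beside a median of -0.001 over all genes tested (quartiles -0.13 and 0.14). The members spanned -0.84 for CDC25B to -0.08 for BUB3, with standard errors of 0.044 to 0.095. For 48 members every library labelled si-CITED2 lay below every si-Control library, which held for 16.1% of all genes (the reverse held for 16.4% of all genes and for no member). Leaving out any 1 library kept 45 to 48 members lower.

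**Figure D1:**
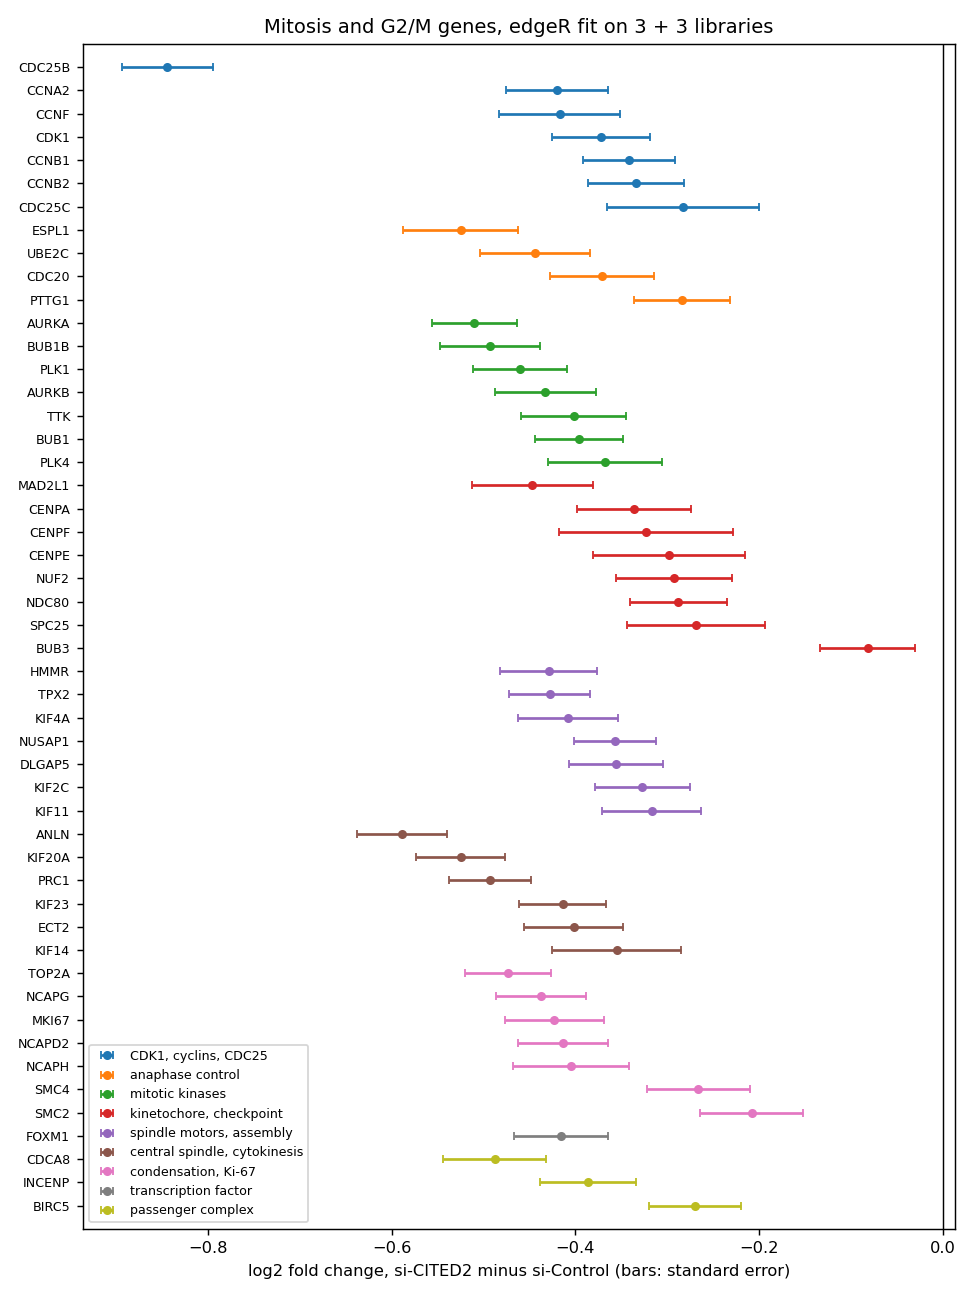
Log2 fold change of each of the 50 mitosis and G2/M genes, libraries labelled si-CITED2 minus si-Control, from the edgeR fit; bars show the standard error and colours the role. All 50 points lie below 0, from -0.84 for CDC25B to -0.08 for BUB3.

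Summed over the 50 genes, the level was 11552, 11293 and 11993 CPM in si-Control replicates 1, 2 and 3 and 8794, 8662 and 8774 CPM in si-CITED2 replicates 1, 2 and 3. The libraries labelled si-CITED2 thus stood at 75.3% of the si-Control mean, and the 3 values of each group lay close together (SD 354 and 71 CPM) beside the gap between the groups. Without any 1 library the value was 74.2% to 76.5%. In bulk RNA, fewer cells in G2 and mitosis and less of these transcripts per cell cannot be told apart. The study also counted cells and measured viability in culture, and reported no effect of CITED2 on either in its prostate cancer lines. In mice, it reported slower growth of PC3 tumours in the prostate after shRNA knockdown of CITED2. The highest value of a gene fell in si-Control replicate 1, 2 or 3 for 13, 9 and 28 genes, and the lowest in si-CITED2 replicate 1, 2 or 3 for 23, 14 and 13 genes.

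**Figure D2:**
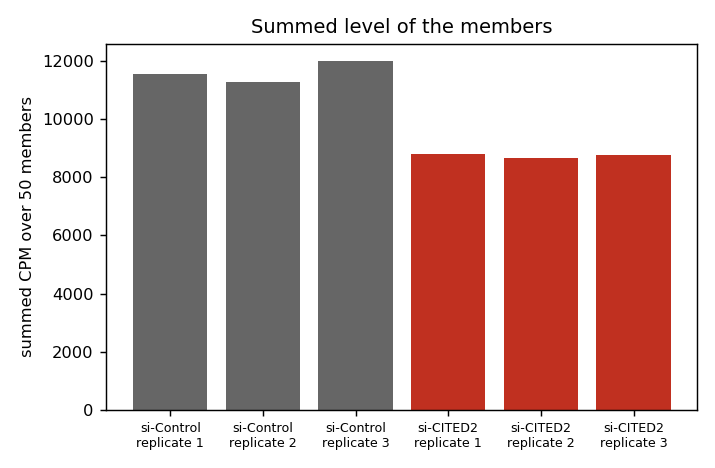
Summed level of the 50 mitosis and G2/M genes in each library, in CPM of the TMM-scaled library size; each bar is 1 library. The 3 si-Control bars stand between 11293 and 11993 CPM and the 3 bars labelled si-CITED2 between 8662 and 8794 CPM.

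The promoters of these genes share a feature that their choice did not use. In the RefSeq promoter sequences (GRCh38.p14, 250 bases before to 50 after each annotated start), 43 of the 50 genes had an entry. FOXM1, TPX2, TTK, AURKA, BIRC5, UBE2C and BUB3 had none. The CHR letters, which are TTTGAA or its variant with a central CG, namely TTCGAA, on either strand, were present for 35 of the 43 genes, or 81.4% (Wilson 95% interval 67.4% to 90.3%), against 19.5% of all 27305 genes with a promoter entry and 15.4% of the 11412 other genes tested. Members had 1.33 annotated starts per gene and all genes 1.29. Between 100 bases before and 50 after the start, 76.7% of the members had a match, beside 9.1% of all genes. The letters CCAAT, the site of the factor NF-Y, were found for 34 of the 43 genes, or 79.1% (64.8% to 88.6%), against 39.7% of all genes and 42.2% of the other genes tested.

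The CHR windows of 8 of the genes with the smallest p-values are shown because these genes had the clearest changes and their matches lie close before the annotated start. Each is 30 bases of GRCh38.p14, written 5′ to 3′ on the strand of the gene, with a CHR match in capitals. The ANLN window also holds a match on the other strand, at position -26, left in lower case directly before the capitals.
CDC25B (chr20:3796260-3796289, plus strand): ctgctgttatttTTCGAAtatataaggagg
ANLN (chr7:36389830-36389859, plus strand): ctgaaattcaaaTTTGAAcggctgcagagg
PRC1 (chr15:90994538-90994567, minus strand): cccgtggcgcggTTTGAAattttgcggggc
BUB1B (chr15:40161034-40161063, plus strand): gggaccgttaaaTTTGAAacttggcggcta
PLK1 (chr16:23678848-23678877, plus strand): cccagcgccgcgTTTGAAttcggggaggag
NCAPG (chr4:17810932-17810961, plus strand): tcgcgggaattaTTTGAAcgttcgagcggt
KIF23 (chr15:69414282-69414311, plus strand): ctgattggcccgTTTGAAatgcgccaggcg
CDCA8 (chr1:37692481-37692510, plus strand): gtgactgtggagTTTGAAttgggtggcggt

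The first capital stands at position -38 from the start for CDC25B, -20 for ANLN and PRC1, -23 for BUB1B and CDCA8, -29 for PLK1, -35 for NCAPG and -55 for KIF23. For CDC25B, with 4 annotated starts, the position is counted from the start whose window held the match, the other windows holding none. CDC25B has the TTCGAA form and the other genes shown have TTTGAA. KIF20A had no CHR match in its window, and TOP2A had matches only farther out, at -194 and -151. The median log2 fold change was -0.40 over the 35 genes with a match and -0.37 over the 8 without, and in the shorter window the order was the other way, -0.39 over 33 genes with a match and -0.41 over 10 without. E2F-like letters (TTCCCGC, the form TTCGCGC, or the form TTGGCGC, which can share letters with CCAAT, all on either strand) were found for 27.9% of the members (16.7% to 42.7%), 13.1% of all genes and 20.4% of the other genes tested. Forkhead-like letters (TAAACA on either strand), of the kind FOXM1 and its relatives bind, were found for 7.0% of the members (Wilson 95% interval 2.4% to 18.6%), 14.7% of all genes and 10.6% of the other genes tested. A match describes the letters in a window and does not show binding.

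**Figure D3:**
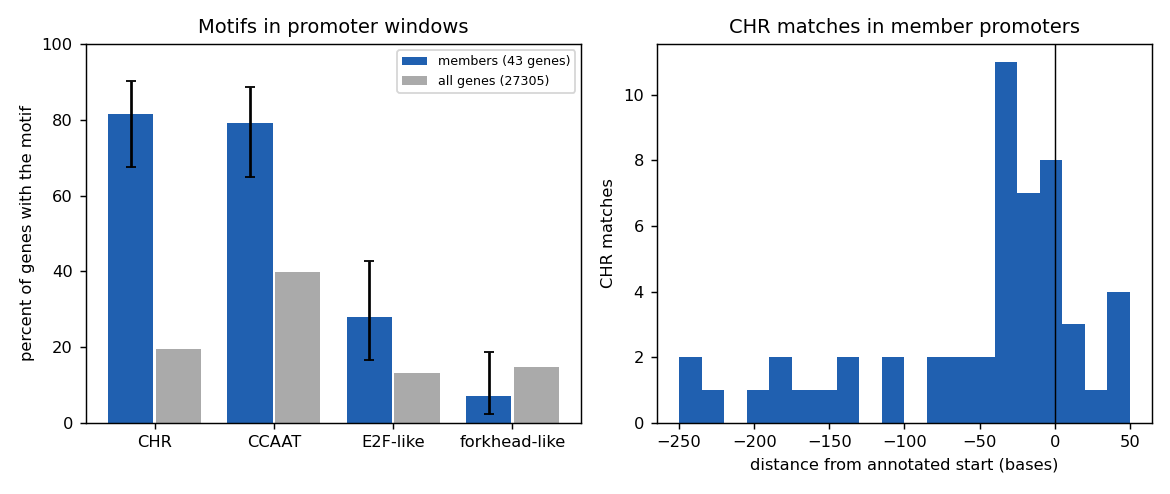
Left, percent of genes whose promoter window holds each motif, for the 43 members with an entry (bars with Wilson 95% intervals) and for all 27305 genes; CHR stands at 81.4% against 19.5%. Right, number of CHR matches in the members' windows by distance from the annotated start in bases, with most matches within 50 bases of it.

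All 7 genes of the CDK1 group were lower, with a median log2 fold change of -0.37. CDC25B, a phosphatase that activates CDK1 at entry into mitosis, changed most of all 50 genes. It was at 147.2, 150.8 and 149.2 CPM in the si-Control libraries and at 81.7, 84.2 and 83.3 CPM in those labelled si-CITED2, a log2 fold change of -0.84 (SE 0.05, edgeR adjusted p = 2.06e-09), or 44.3% less RNA. The 2 groups were far apart and their replicates nearly level. Among the promoter windows printed above, its window is the one with TTCGAA. That form was also found for BUB1, NDC80 and CCNF, whose log2 fold changes were -0.40, -0.29 and -0.42. CDK1 itself was at 131.1, 118.3 and 121.2 against 94.0, 96.9 and 95.5 CPM (-0.37, SE 0.05). Its cyclin partners changed by similar amounts, -0.42 for CCNA2 (cyclin A2), and -0.34 for CCNB1 and -0.33 for CCNB2 (B-type cyclins). CCNF, the F-box cyclin that directs protein degradation, fell by 0.42. CDC25C, the second CDC25 phosphatase here, had the lowest counts of the group and fell by 0.28 (edgeR adjusted p = 0.0262), a call lost without any of 4 single libraries (si-Control replicates 1 and 2, si-CITED2 replicates 1 and 2: adjusted p between 0.0553 and 0.107).

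The 7 genes of the mitotic kinase group were all lower (median -0.43). AURKA, which matures the spindle poles, was at 203.3, 198.4 and 199.0 CPM in si-Control and at 140.2, 138.3 and 143.3 CPM in the libraries labelled si-CITED2 (log2 fold change -0.51, SE 0.05, edgeR adjusted p = 5.92e-07). BUB1B, a checkpoint protein that restrains CDC20, was at 242.2, 251.8 and 260.1 against 165.9, 187.6 and 182.0 CPM (-0.49, SE 0.05, edgeR adjusted p = 5.49e-06). PLK1, which acts from mitotic entry to cytokinesis, was at 110.2, 108.9 and 106.3 against 78.2, 81.2 and 77.2 CPM (-0.46, SE 0.05, edgeR adjusted p = 5.93e-06). For each of these genes the groups did not overlap. AURKB, the catalytic subunit of the chromosomal passenger complex, fell by 0.43, the checkpoint kinases TTK and BUB1 by 0.40 each, and PLK4, which starts centriole duplication, by 0.37. AURKA has a processed pseudogene, and how reads shared with it were counted is not given in the sources used here.

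**Figure D4:**
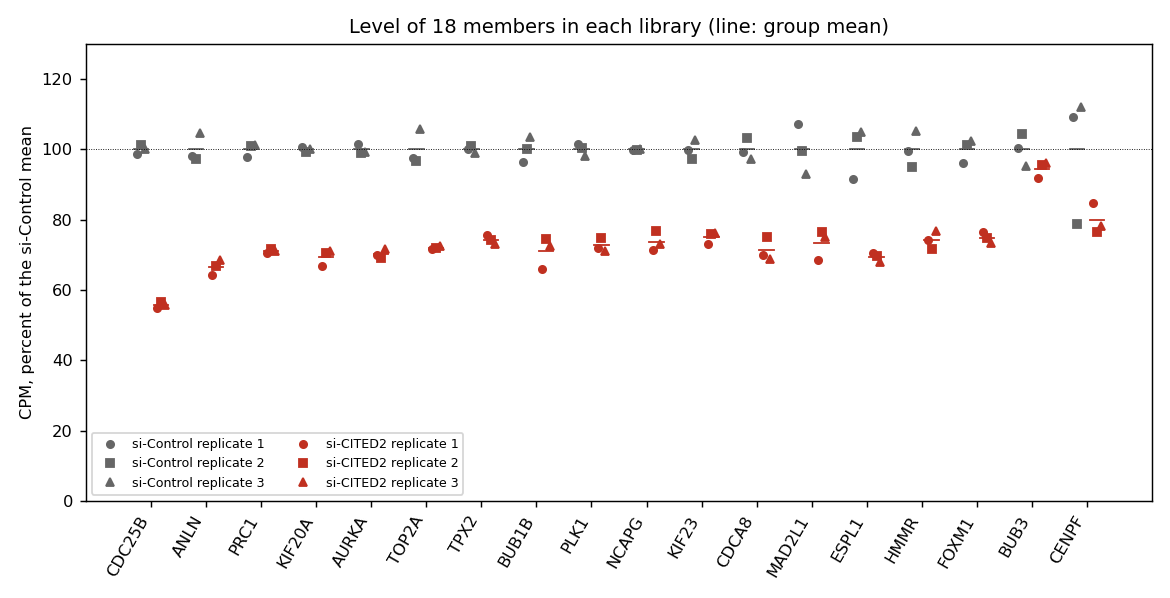
CPM in each library as percent of the si-Control mean of the gene, for the members whose library values are given in the text, except CDK1 and MKI67. Symbols mark the replicates and lines the group means. Apart from BUB3 and CENPF, all values labelled si-CITED2 lie below all si-Control values of the gene, CDC25B lowest.

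The kinetochore and checkpoint genes had the median nearest 0 of the role groups, -0.30, and 7 of the 8 were lower. MAD2L1, the checkpoint protein that binds CDC20, had the largest change of this group. Its level was 75.5, 70.0 and 65.4 CPM in si-Control and 48.2, 53.9 and 52.8 CPM in the libraries labelled si-CITED2 (-0.45, SE 0.07, edgeR adjusted p = 0.000124). The centromeric histone CENPA fell by 0.34, and the NDC80 complex genes NUF2, NDC80 and SPC25 by 0.29, 0.29 and 0.27. The kinesin CENPE, which carries chromosomes to the spindle equator, fell by 0.30. The calls of CENPE and SPC25 were each lost without any of 3 single libraries (CENPE without si-Control replicate 3 or si-CITED2 replicate 2 or 3, SPC25 without si-Control replicate 1 or si-CITED2 replicate 1 or 3), with adjusted p up to 0.123 and 0.084.

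The genes BUB3 and CENPF were singled out after their values were seen, because only in these did the groups overlap. BUB3, a checkpoint protein that also takes part in other processes in interphase, was at 118.6, 123.3 and 112.4 CPM in si-Control and at 108.4, 112.9 and 113.6 CPM in the libraries labelled si-CITED2 (-0.08, SE 0.05, edgeR adjusted p = 0.337). CENPF, an outer kinetochore protein, was at 384.3, 277.4 and 394.4 against 298.4, 269.7 and 275.6 CPM (-0.32, SE 0.10, edgeR adjusted p = 0.0257). Its si-Control replicate 2 stood with the other group, and it had the largest SD of log2 levels of all members within si-Control, 0.283, where the median member had 0.0595. DESeq2 did not call CENPF (adjusted p = 0.175). Its call in edgeR was also lost without si-Control replicate 1 or 3 or si-CITED2 replicate 2 or 3 (adjusted p between 0.089 and 0.127).

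The 3 chromosomal passenger subunits, which place AURKB at centromeres and then at the spindle midzone, were all lower. CDCA8 (borealin) was at 90.8, 94.2 and 88.9 CPM in si-Control and at 63.8, 68.6 and 62.9 CPM in the libraries labelled si-CITED2 (-0.49, SE 0.06, edgeR adjusted p = 8.14e-06). The scaffold INCENP fell by 0.39 and BIRC5 (survivin) by 0.27. The catalytic subunit AURKB, at -0.43, lay between CDCA8 and INCENP.

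All 7 spindle motors and assembly factors were lower, with a median of -0.36 and a narrow range of -0.43 to -0.32. TPX2, which activates AURKA on spindle microtubules, was at 522.3, 526.5 and 515.9 CPM in si-Control and at 394.4, 387.2 and 381.9 CPM in the libraries labelled si-CITED2 (-0.43, SE 0.04, edgeR adjusted p = 2.83e-06). HMMR, a spindle pole protein, was at 155.3, 148.3 and 164.0 against 115.8, 111.8 and 119.6 CPM (-0.43, SE 0.05, edgeR adjusted p = 2.06e-05). The groups did not overlap for any of the 7 genes. The chromosome-bound motor KIF4A fell by 0.41, the microtubule-binding proteins NUSAP1 and DLGAP5 by 0.36 each, the microtubule depolymerase KIF2C by 0.33 and KIF11, the motor that separates the spindle poles, by 0.32. KIF4A has a close copy, KIF4B, whose share of reads is uncertain.

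The 6 genes of the central spindle and cytokinesis had the lowest median of the role groups with several genes, -0.45. ANLN (anillin), which ties the contractile ring to the membrane, was at 573.3, 568.9 and 612.0 CPM in si-Control and at 375.1, 390.6 and 400.5 CPM in the libraries labelled si-CITED2 (-0.59, SE 0.05, edgeR adjusted p = 1.92e-07). KIF20A, a midzone kinesin, was at 183.5, 180.7 and 182.4 against 122.0, 128.3 and 129.5 CPM (-0.53, SE 0.05, edgeR adjusted p = 5.92e-07). PRC1, which bundles antiparallel microtubules, was at 411.1, 424.0 and 425.4 against 295.8, 300.9 and 298.9 CPM (-0.49, SE 0.05, edgeR adjusted p = 5.87e-07). After CDC25B, these were among the members with the smallest p-values. KIF23, the kinesin of centralspindlin, was at 262.1, 255.4 and 269.0 against 191.3, 199.1 and 199.5 CPM (-0.41, SE 0.05, edgeR adjusted p = 7.96e-06). ECT2, the exchange factor that activates RhoA at the cleavage site, fell by 0.40 and the kinesin KIF14 by 0.36.

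In the condensation group, which includes the proliferation antigen Ki-67, all 7 genes were lower (median -0.41). TOP2A, the topoisomerase that resolves sister chromatids, was at 1248, 1237 and 1352 CPM in si-Control and at 915.7, 919.6 and 927.6 CPM in the libraries labelled si-CITED2 (-0.47, SE 0.05, edgeR adjusted p = 1.86e-06). NCAPG, a condensin I subunit, was at 157.2, 157.5 and 157.9 against 112.5, 121.2 and 115.1 CPM (-0.44, SE 0.05, edgeR adjusted p = 6.82e-06). The groups did not overlap for either gene. MKI67, the gene of Ki-67, was at 1551, 1546 and 1695 against 1264, 1120 and 1191 CPM (-0.42, SE 0.05). The other condensin I subunits NCAPD2 and NCAPH fell by 0.41 each, while SMC4 and SMC2, the ATPases that condensin I and condensin II share, fell by 0.27 and 0.21. The call of SMC2 was lost without si-Control replicate 3 or si-CITED2 replicate 2 or 3 (adjusted p up to 0.0746).

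The 4 genes of anaphase control were all lower (median -0.41). ESPL1 (separase), the protease that cuts cohesin, was at 60.9, 68.8 and 69.8 CPM in si-Control and at 46.9, 46.4 and 45.2 CPM in the libraries labelled si-CITED2 (-0.53, SE 0.06, edgeR adjusted p = 1.57e-05). UBE2C, the ubiquitin-conjugating enzyme of the anaphase-promoting complex (APC/C), fell by 0.44, its activator CDC20 by 0.37 and PTTG1 (securin), the inhibitor of separase, by 0.28. PTTG1 has near-identical copies, so its counts are uncertain. FOXM1, the forkhead transcription factor of the late cell cycle, was at 126.8, 133.8 and 135.3 against 101.1, 98.7 and 96.8 CPM (-0.42, SE 0.05, edgeR adjusted p = 1.69e-05).

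Per length of the longest coding transcript in GENCODE 29, levels in si-Control ran from 222 CPM per kb for TOP2A and 202 for NUSAP1 to 9.12 for CCNF and 5.79 for CENPE. TPX2 (145), PTTG1 (135), MKI67 (126), UBE2C (124) and ANLN (122) followed the highest, and their order rests on the transcript chosen for each gene.

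The rest of the late cell cycle programme was read from lists of other genes, none of them members. Of 39 other G2/M-phase genes, 37 were lower and none higher (edgeR, and none at an unadjusted p; DESeq2 36 and 0), with a median of -0.41. FAM64A, a regulator of the metaphase to anaphase transition, was at 30.4 ± 1.85 CPM in si-Control and 17.5 ± 2.0 CPM in the libraries labelled si-CITED2 (SD, n = 3; log2 fold change -0.80), and FAM83D, a spindle protein, at 62.0 ± 5.73 and 39.4 ± 0.67 CPM (-0.65). Of 28 other kinetochore genes, 20 were lower and none higher (edgeR, and none at an unadjusted p; DESeq2 19 and 0), with a median of -0.32, and 13 were lower without si-CITED2 replicate 3. SPC24, the partner of SPC25, and CENPM had the largest falls, -0.57 and -0.56.

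In other machines of mitosis few genes passed the test. The list of 15 APC/C genes held subunits and the activator FZR1. Of these, 1 was lower (ANAPC7, -0.17) and 1 higher (CDC26, 0.22), with a median of -0.05. Neither call was stable. No gene of the list was lower by DESeq2, without si-Control replicate 2 or without any 1 library labelled si-CITED2. When si-Control replicate 1 was left out, 3 were lower. None was higher without si-Control replicate 2 or 3 or si-CITED2 replicate 2 or 3. FZR1 was not called (0.04, SE 0.06, edgeR adjusted p = 0.712), while the activator CDC20 and the ubiquitin enzyme UBE2C were lower as given above. Of 10 cohesin and loader genes, 1 was lower (SMC1A, a core ring subunit, -0.22), with a median of -0.07, and 2 were lower without si-Control replicate 1. None of the cohesin genes was higher by edgeR, at an unadjusted p, or by DESeq2. These shares stand near the 8.09% and 9.36% of all genes.

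**Figure D5:**
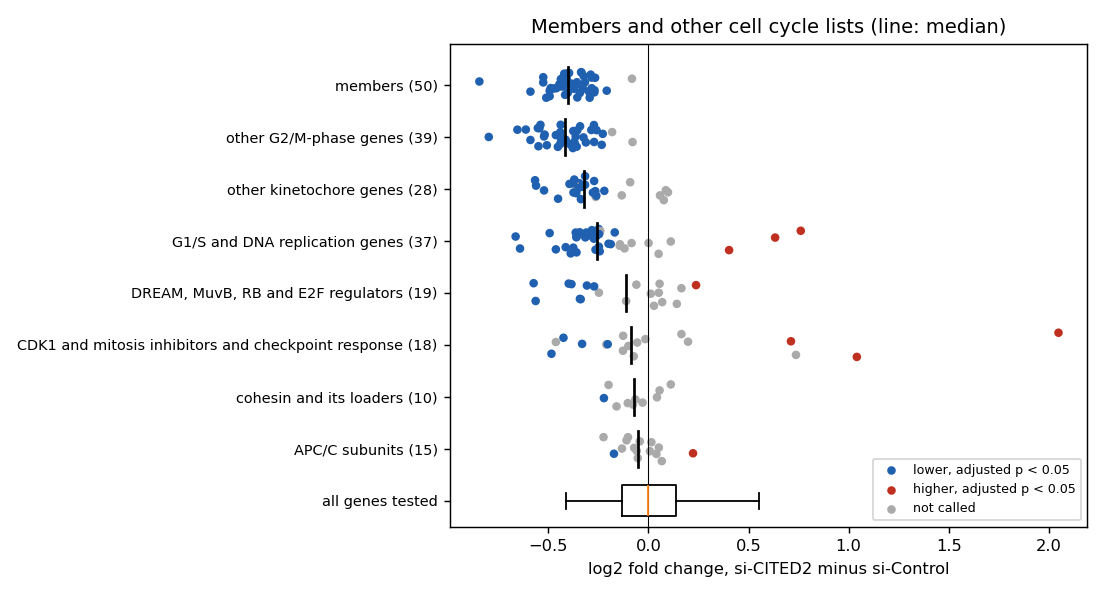
Log2 fold change of each gene, libraries labelled si-CITED2 minus si-Control, in the members and in 7 other cell cycle lists; points are genes, vertical lines list medians, and the box shows the median and quartiles over all genes tested (whiskers: 5th to 95th percentile). The members and the other G2/M-phase genes have medians of -0.40 and -0.41, the APC/C subunits listed with FZR1 and the cohesin genes of -0.05 and -0.07.

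Genes of the earlier cell cycle had a median nearer 0. Of 37 G1/S and DNA replication genes, 26 were lower and 3 higher, with a median of -0.26. CDC45, a part of the replicative helicase, was at 99.5 ± 3.85 and 62.9 ± 0.78 CPM (SD, n = 3; -0.66), and RRM2, a subunit of ribonucleotide reductase, at 379.4 ± 5.94 and 243.2 ± 7.79 CPM (-0.64). In the other direction stood CCNE1 (cyclin E1, 0.76) and CDK6, the G1 kinase (0.63). The difference between these lists was not tested.

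Of 19 genes of DREAM, MuvB, the RB family and the E2F factors, 8 were lower and 1 higher, with a median of -0.11. The repressor E2F8 and the activator E2F2 had the largest falls, -0.57 and -0.56. MYBL2 (B-MYB), which joins MuvB as an activator, fell by 0.34 (SE 0.05). It was at 331.9 ± 10.9 CPM in si-Control and 262.6 ± 16.1 CPM in the libraries labelled si-CITED2 (SD, n = 3). E2F1 was at 32.9 ± 1.69 and 26.6 ± 2.43 CPM (-0.31, SE 0.08), and its call was lost without si-CITED2 replicate 2 (edgeR adjusted p = 0.0595). E2F3 was the single higher gene (0.24), and no gene of the list was higher without si-Control replicate 2 or 3 or si-CITED2 replicate 2.

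Among 18 inhibitors of CDK1 and mitosis and genes of the checkpoint response, 4 were lower, 3 higher and 11 not called, with a median of -0.09. CDKN1A, the inhibitor p21 of cyclin-dependent kinases, was counted 576, 634 and 405 times in si-Control and 1743, 2208 and 1811 times in the libraries labelled si-CITED2, or 21.2 ± 0.85 and 87.9 ± 3.16 CPM (SD, n = 3). It was 4.13-fold higher (log2 fold change 2.05, SE 0.06, edgeR adjusted p = 4.64e-13). GADD45B, a stress-induced gene, was 2.06-fold higher (26.1 ± 1.35 and 53.9 ± 2.40 CPM). For both genes every library labelled si-CITED2 lay above every si-Control library. WEE1, a kinase that holds CDK1 inactive, was at 42.5 ± 1.94 and 42.1 ± 0.93 CPM (-0.02, SE 0.06, edgeR adjusted p = 0.904). PKMYT1, also an inhibitory kinase of CDK1, was lower (-0.33, SE 0.06, edgeR adjusted p = 0.000925). Among the lower genes were CHEK2, a checkpoint kinase (-0.48), and the G1 inhibitor gene CDKN2C (-0.42).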

How the data were processed

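Cultures were grouped and numbered by their labels. For each culture the authors deposited 1 table of read counts by gene symbol, not normalized, from total RNA extracted with Trizol and prepared with a SMARTer mRNA-Seq kit. The submitters' processing notes name TopHat, edgeR and hg19, with no roles or versions. The counting program, annotation and strand setting are not given in the sources used here, so genes with near-identical copies or antisense partners are uncertain. The tables held 25737 rows for 24462 symbols. Repeated symbols (286) entered by their row of largest count, and the unused rows held 0.0821% of all reads.

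The comparison was fitted with edgeR 4.0.16 under R 4.3.3 (filterByExpr, TMM, glmQLFit and glmQLFTest without a block), with p-values adjusted by Benjamini-Hochberg over 16314 genes and a threshold of 0.05. Standard errors of fold changes were derived from the F statistic. Groups of 3 allow no exact permutation p below 0.1. Scripts were tested on simulated data. Named genes were CITED2, the 12 members with the smallest p-values, the largest change in each role group, up to 4 genes of each other list, and MYBL2, E2F1, CDKN1A and WEE1. PKMYT1 was added after its value was seen. Other members are given by their fold changes. The members and lists were chosen with earlier results of these data known. Promoters were taken from RefSeq on GRCh38.p14 and matched by symbol. No coordinate was converted from hg19. Intervals and floors cover counting error only. Alternatives were a replicate block, DESeq2 1.42.0, other scalings, other filters, summed rows and leaving out each library. Some cell line markers are not reported here.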

Additional observations from a re-analysis of the deposited data

How the results depend on the processing

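Over the 13 alternatives, 45 of the 50 members kept the direction and the side of the threshold that they had in the report, 5 (CDC25C, CENPE, CENPF, SMC2 and SPC25) lost their call in some, and none changed direction. The members called lower were 48 to 49 under other scalings, filters and tools and 45 to 48 without any 1 library. Their median log2 fold change ran from -0.419 to -0.400 and from -0.408 to -0.380, and their summed level from 74.4% to 75.4% and from 74.2% to 76.5% of si-Control. Calls over all genes ran from 881 to 1328 lower and from 1135 to 1519 higher without any 1 library, and total counts in place of TMM gave 1530 lower and 1390 higher, turning the balance of 1319 and 1527. The log2 fold change of CITED2 was 0.221 with total counts in place of TMM (edgeR adjusted p = 0.0519) and 0.173 to 0.291 without any 1 library, and the log2 fold change of WEE1 ran from -0.049 to 0.019 without any 1 library, changing sign without si-Control replicate 2. In both cases the cause was not tested. With the window cut to 100 bases before the start, E2F-like letters were found for 11.6% and forkhead-like letters for 0.0% of members. The shares of all genes in that window were 7.3% and 6.8%. Fewer bases were searched there, and the cause of the lower shares was not tested.

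Among lists counted after seeing the data, the DREAM, MuvB, RB and E2F list had 2 higher genes when each library had to hold 10 counts or more. Correlations of deviations for same-numbered cultures were -0.042, 0.054 and -0.017 over all genes and -0.139, 0.276 and -0.106 over the members. Not every culture correlated best with its own number. With 3 cultures per group, these values cannot show whether the replicate numbers pair the cultures. With the replicate number as a block, 49 members were lower, and over all genes 1154 were lower and 1405 higher. The block also left no gene of the APC/C list called in either direction.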

Other observations

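The CHR letters were also counted over all tested genes with a RefSeq promoter entry, in the window from 100 bases before to 50 after the start, a count chosen after seeing the data. Of 768 tested genes with a match that are not members, 113 (14.7%) were lower in the libraries labelled si-CITED2, with a median log2 fold change of -0.02. Of the 10644 without a match that are not members, 842 (7.91%) were lower, with a median of 0.003. These genes include the other G2/M-phase and kinetochore genes described above, and no test was made of this difference.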
